A study of Mus musculus with 22 samples.

Results

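Integrins are cell adhesion receptors made of 1 alpha and 1 beta chain, and the genes described here are 10 chains used in adhesion and homing: Itgal, Itgb2, Itgam, Itga4, Itga5, Itga6, Itgav, Itgb1, Itgb5 and Itgb7. They are 10 of 22180 genes measured on 22 arrays. Itgal was chosen on its own difference between inhibitor-treated and control cells in these data, and the other 9 were listed as its partner and other integrin chains, with earlier results of these data known. For each gene the brightest probe that carried a single gene symbol, by its mean over the 22 arrays, was taken. Itgav alone among the 10 had a second such probe, which averaged 4.69, against 7.78 for the probe used.

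The cells were haematopoietic stem cells of wild-type C57Bl/6J mouse fetal liver, taken at E14.5. The liver cells were kept for 4 h or 10 h on OP9-DL1, a stromal line that presents Dll1, a ligand of Notch. The cultures held either a gamma-secretase inhibitor (GSI), which blocks the cleavage that frees the active part of Notch receptors, given at 1 µM per the labels, or the solvent DMSO. The SLAM LSK fraction, a stem cell gate on lineage, Sca-1, Kit and SLAM family markers, was sorted after the culture, so every group had been exposed to the ligand-bearing stroma. At 4 h there were 7 GSI and 7 DMSO samples, at 10 h there were 4 GSI and 4 DMSO samples, and each GSI sample had a DMSO partner of the same biological replicate. How many embryos went into a replicate is not stated in the labels.

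An integrin works only as a pair of chains at the cell surface, and the pair decides which ligand it holds. Itgal (alpha L, CD11a) joins Itgb2 (beta 2, CD18) to form LFA-1, the leukocyte receptor for ICAM proteins on other cells. Itgam (alpha M, CD11b) joins the same Itgb2 to form Mac-1 of myeloid cells. Itga4, Itga5 and Itga6 join Itgb1: Itga4 with Itgb1 (VLA-4) binds VCAM-1 and fibronectin, Itga5 with Itgb1 is a fibronectin receptor, and Itga6 with Itgb1 binds laminins. Itga4 also joins Itgb7, which gives a receptor for MAdCAM-1, and Itgav joins Itgb5 in a vitronectin receptor. In mice, blood stem cells that lack Itgb1 do not settle in the fetal liver.

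Values are deposited log2 expression, made with RMA. The array medians were 5.03 to 5.12 at 4 h and 4.45 to 4.52 at 10 h, so levels at both times sit on different distributions. The level of one gene's probe was not set against that of another. Of the 7 sort and stem cell markers listed, 5 were measured. Kit averaged 9.14 to 10.0 in the 4 groups. Slamf1, which encodes the SLAM receptor CD150, averaged 4.74 to 4.97 at 10 h and 3.98 to 4.01 at 4 h. It was below the median gene at 4 h and, in DMSO cells, at 10 h (4.74 against 4.76). Codes in the sample descriptions, whose meaning is not stated, divide the samples into runs. At 4 h pair 1 was run 1, pairs 2 and 3 were run 2, and pairs 4 to 7 were run 3, and at 10 h run 1 held pairs 1 and 2 while run 2 held pairs 3 and 4. Pair 6 at 4 h stood apart from the other 4 h pairs. It had the highest mean of 7 endothelial markers, 10.7 in both the GSI and the DMSO array, and the lowest Itga4 and Itgam. Its mean of the 5 sort and stem cell markers was also the lowest at 4 h, 7.47 in GSI and 7.31 in DMSO. Hlf (5.92 in GSI, 5.31 in DMSO) and Mecom (7.29 and 7.68) were lowest there, while Procr (9.96 and 9.70) was highest.

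Itgal was lower in the GSI member of every pair. At 4 h its levels were 5.74, 6.604 and 8.00 in GSI cells (lowest, median and highest of 7), against 6.39, 6.92 and 8.30 in DMSO cells, and these ranges overlap widely. The pair differences, GSI minus DMSO, were -0.28, -0.40, -0.53, -0.32, -0.71, -0.65 and -0.29 for pairs 1 to 7. Each pair moved the same way although the DMSO levels themselves ran between 6.39 and 8.30.

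At 10 h Itgal had levels of 6.37, 6.36, 6.93 and 6.84 in GSI cells, against 7.27, 7.91, 7.78 and 7.68 in DMSO cells. The highest GSI sample lay under the lowest DMSO sample. Itgal was the only 1 of the 10 genes whose GSI and DMSO levels did not overlap at 10 h, as was the case for 2.72% of all genes. The pair differences were -0.90, -1.55, -0.85 and -0.85. Pair 2 had the highest DMSO level and the lowest GSI level of the 4.

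As a description of the values that chose it, Itgal (Entrez gene 16408, chromosome 7) averaged 6.77 ± 0.86 in GSI cells and 7.23 ± 0.79 in DMSO cells at 4 h (SD, n = 7 each), a difference of -0.46 ± 0.095 (SE), or 1.37-fold lower. At 10 h it averaged 6.62 ± 0.30 in GSI cells and 7.66 ± 0.28 in DMSO cells (SD, n = 4 each), a difference of -1.04 ± 0.13 (SE), or 2.05-fold lower. Both SE come from the limma fit, which shares its spread over both times and draws on all genes. The pair differences themselves had an SD of 0.18 at 4 h and 0.35 at 10 h. Without pair 2 the 10 h difference was -0.86. Within the runs it was -1.22 in pairs 1 and 2 and -0.85 in pairs 3 and 4 at 10 h, and -0.47 in pairs 2 and 3 and -0.49 in pairs 4 to 7 at 4 h. Of all genes, 0.0992% were lower in GSI in 11 of 11 pairs, and Itgal was 1 of these. In these bulk samples, fewer cells that express a gene and less of its RNA per cell cannot be told apart.

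**Figure D1:**
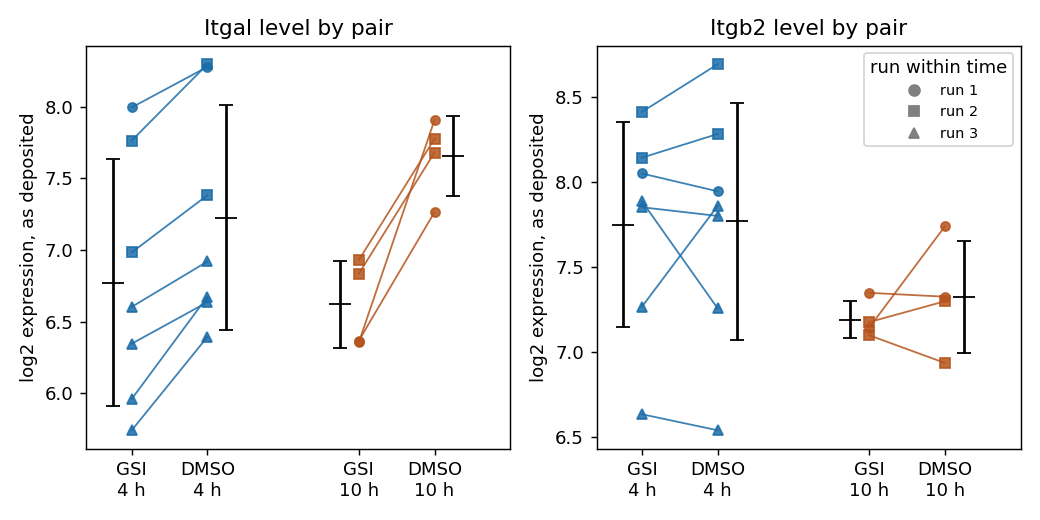
Levels of Itgal (left) and its partner Itgb2 (right) in deposited log2 expression. Lines join the GSI and DMSO array of a pair, symbols mark the run within each time, and black bars give the mean ± SD of each group. All 11 Itgal lines rise towards DMSO, and the Itgb2 lines run both ways.

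Itgb2, the chain that Itgal must join to reach the surface, did not pass the test at either time. At 10 h Itgb2 had levels of 7.35, 7.14, 7.18 and 7.10 in GSI cells, against 7.33, 7.74, 7.30 and 6.94 in DMSO cells. The groups overlapped, and 2 of 4 pairs were lower. The change was -0.13 ± 0.16 (SE, limma adjusted p = 0.755). At 4 h the lowest, median and highest levels were 6.63, 7.89 and 8.41 in GSI cells and 6.54, 7.86 and 8.69 in DMSO cells, with a change of -0.02 ± 0.12 (SE, limma adjusted p = 0.999). A p that misses the threshold does not show that the level was the same.

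Set pair by pair, the Itgal change was below the Itgb2 change in 7 of 7 pairs at 4 h and in 4 of 4 pairs at 10 h. The gap, Itgal change minus Itgb2 change, averaged -0.44 (SD 0.30) at 4 h and ranged between -0.95 and -0.12. At 10 h it averaged -0.90 (SD 0.12) and ranged between -1.01 and -0.72. Pair 2 at 10 h, which had the lowest Itgal difference, also had the lowest Itgb2 difference, -0.60, and its gap of -0.96 lay among those of the other pairs. The Itgal change was also below that of each of the other 8 chains in 7 of 7 pairs at 4 h and 4 of 4 pairs at 10 h. These gaps use the values that chose Itgal and carry no test.

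**Figure D2:**
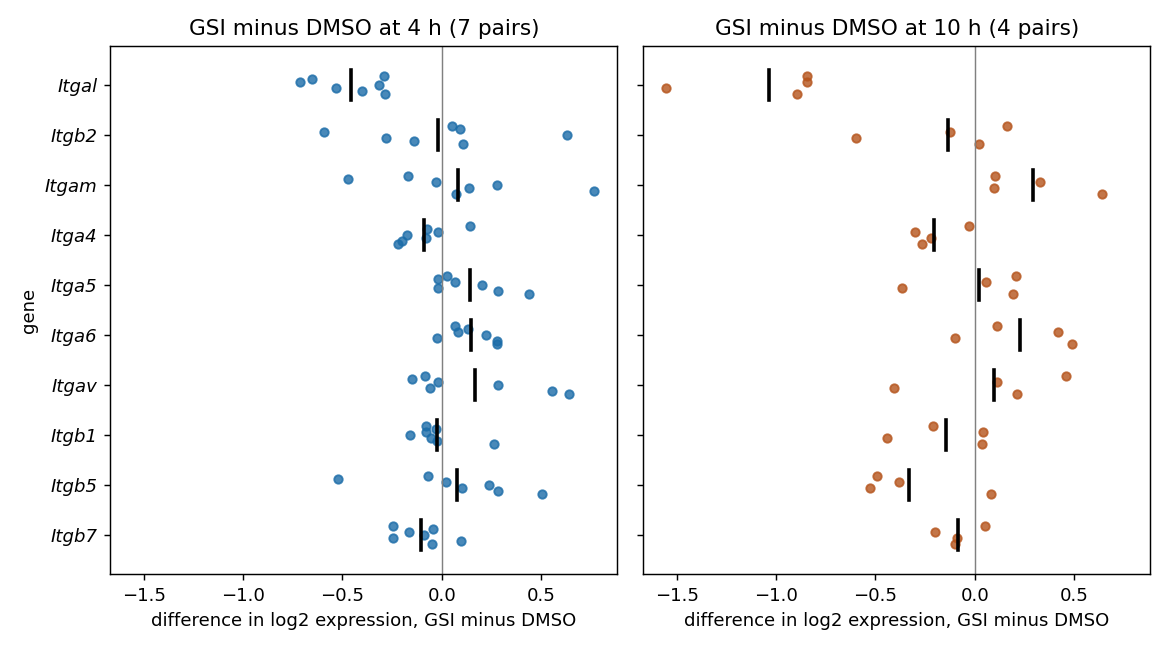
GSI minus DMSO in log2 expression for each of the 10 integrin genes, at 4 h (left, 7 pairs) and 10 h (right, 4 pairs). Each point is a pair and the black bar is the mean. Itgal points all lie left of 0, and those of most other chains lie on both sides.

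Of the 9 other chains, 0 passed an adjusted p of 0.05 at either time with limma. At 4 h 0 of 9 had an unadjusted p under 0.05, against 934 of all 22180 genes, and 0.00451% of all genes passed. At 10 h 3 of 9 had an unadjusted p under 0.05, against 3122 of the 22180 genes, and 0.667% of all genes passed. The median change of the 9 was 0.08 at 4 h and -0.09 at 10 h, against 0.01 and -0.01 over all genes. For the mean of both times 0 of 9 passed, with 2 under an unadjusted p of 0.05, against 2654 of all genes, and 0.32% of all genes passing.

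Itgam, which shares Itgb2 with Itgal, had levels of 6.79, 6.97, 7.02 and 6.92 in GSI cells at 10 h, against 6.15, 6.87, 6.69 and 6.82 in DMSO cells. Each GSI sample was above its partner, although the groups overlapped. The change was 0.29 ± 0.16 (SE, limma adjusted p = 0.429). Itgal and Itgam thus had values of opposite sign in all 4 pairs at 10 h, and the gap, Itgal change minus Itgam change, averaged -1.33 (SD 0.32). The Itgal signs are among the values that chose it. At 4 h Itgam was higher in GSI in 4 of 7 pairs and lower in 3. Its 4 h change was 0.08 ± 0.12 (SE, limma adjusted p = 0.999).

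Itga4 had levels of 8.82, 9.002, 8.92 and 8.90 in GSI cells at 10 h, against 9.08, 9.22, 9.22 and 8.93 in DMSO cells. It was below its partner in 4 of 4 pairs at 10 h and in 10 of 11 pairs in all. The changes were small, -0.20 ± 0.080 at 10 h (SE, limma adjusted p = 0.257) and -0.15 ± 0.050 for the mean of both times (SE, limma adjusted p = 0.255).

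Itga6 ran the other way. Its levels were 7.79, 7.83, 7.82 and 7.32 in GSI cells at 10 h, against 7.30, 7.93, 7.40 and 7.21 in DMSO cells, and 9 of 11 pairs were higher in GSI. The change was 0.23 ± 0.10 at 10 h (SE, limma adjusted p = 0.307) and 0.19 ± 0.063 for the mean of both times (SE, limma adjusted p = 0.235).

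Itgb5 had levels of 4.32, 4.08, 3.82 and 3.67 in GSI cells at 10 h, against 4.24, 4.60, 4.20 and 4.16 in DMSO cells, and 3 of 4 pairs were lower. Its change was -0.33 ± 0.15 at 10 h (SE, limma adjusted p = 0.328) and 0.08 ± 0.11 at 4 h. All 8 levels at 10 h lay under the median gene of their group, 4.74 in GSI and 4.76 in DMSO. Itga5 (0.02), Itgav (0.10), Itgb1 (-0.14) and Itgb7 (-0.09) had 10 h changes with limma adjusted p of 0.949, 0.825, 0.453 and 0.744 in that order.

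For the difference between the 10 h and the 4 h change, 0 of 9 passed with limma, 1 of 9 had an unadjusted p under 0.05, against 2075 of the 22180 genes, and 0.018% of all genes passed. That 1 gene was Itgb5, at -0.41 ± 0.19 (SE, adjusted p = 0.518). For Itgal the 10 h change lay -0.58 ± 0.16 (SE) from the 4 h change, as a description.

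Marker levels of other cell types were read beside these changes. The mean of 16 OP9 stromal markers differed by 0.01, -0.73, -0.75 and -0.38 (GSI minus DMSO) in pairs 1 to 4 at 10 h. Of the 16, 14 were lower and 2 higher in GSI at 10 h, with a median change of -0.44. At that time 7 had an unadjusted limma p under 0.05, against 3122 of all 22180 genes. Cd248 alone passed (-1.33 ± 0.27 SE, limma adjusted p = 0.0391), where 0.667% of all genes did. At 4 h the OP9 mean differed by 1.07, -0.11, 0.28, 0.16, -0.32, -0.064 and -0.30. The mean of 11 neutrophil and monocyte markers, cells that carry Itgal, Itgam and Itgb2, differed by -0.03, -0.64, -0.10 and -0.42 at 10 h. Of these 11, 0 passed with limma (2 had an unadjusted p under 0.05). At 4 h this mean differed by 1.56, 0.48, 0.034, -0.76, -0.36, -0.018 and 0.072, and 0 of 11 passed. The mean of 10 macrophage markers, cells that also carry these chains, differed by -0.053, -0.30, 0.037 and -0.050 at 10 h. Its 4 h differences were 0.82, 0.15, 0.052, 0.19, -0.23, 0.012 and -0.089. None of the 10 passed at either time, and 4 had an unadjusted p under 0.05 at 10 h and 1 at 4 h. The mean of 8 measured lymphoid and NK markers, cells rich in LFA-1, ran between 4.35 and 4.76 in the 10 h arrays and between 4.63 and 4.95 in the 4 h arrays. At 4 h the lymphoid and NK mean differed by -0.11, -0.097, -0.0053, -0.10, -0.12, -0.15 and -0.028 (GSI minus DMSO), lower in GSI in 7 of 7 pairs. At 10 h it differed by 0.14, 0.14, -0.13 and -0.27, lower in 2 of 4 pairs. The markers were split at 4 h, with 3 of the 8 higher and 5 lower in GSI. Only 2 of the 8 lay above the median gene of their group at 4 h. None of the 8 passed with limma at either time, and 2 had an unadjusted p under 0.05 at 4 h and 0 at 10 h. The mean of 5 measured sort and stem cell markers was higher in GSI in 11 of 11 pairs, by 0.61, 0.41, 0.17 and 0.32 at 10 h and by 0.0046 to 0.28 at 4 h. Of these 5, 0 passed at 4 h and 2 at 10 h, against 0.00451% and 0.667% of all genes. Mecom (0.82 ± 0.17 SE) and Hlf (0.73 ± 0.13 SE) rose at 10 h with limma adjusted p of 0.0436 and 0.0236. The calls of Mecom, Hlf and Cd248 were not checked under the alternative settings described below. Kit averaged 9.30 in GSI and 9.14 in DMSO cells at 10 h, Slamf1 4.97 and 4.74, and Procr 6.87 and 6.92. Of the 5 markers 4 were thus higher and 1 lower in GSI at 10 h. The mean of 4 measured erythroid markers differed by 0.21, -0.29, -0.36 and -0.33 at 10 h and by -0.98 to 0.082 at 4 h. All 4 were lower in GSI at both times. That of 4 megakaryocyte markers differed by -0.17, -0.24, 0.15 and -0.30 at 10 h and by -0.50 to 0.89 at 4 h. That of 6 hepatocyte markers differed by -0.45, -0.86, 1.48 and -0.50 at 10 h and by -1.13 to 0.43 at 4 h. None of these markers passed with limma at either time. The part of the listed cell types in the Itgal difference was not tested.

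Genes whose 11 pair differences lay closest to those of Itgal were Mical1, AW011738, Slc35d3, Abcc9 and Plac8. Closeness was the root mean square gap over the 11 pairs, which was 0.378 for Mical1, 0.411 for AW011738, 0.430 for Slc35d3, 0.431 for Abcc9 and 0.436 for Plac8, against a median of 0.791 over all genes. Mical1, which encodes an actin-oxidising enzyme, differed by -0.21 at 4 h and -0.86 at 10 h. Abcc9, a subunit of potassium channels, was lower in GSI in 11 of 11 pairs. Without pair 2 at 10 h only 1 of these 5 stayed among the 5 closest, so that the choice rests largely on that pair. Among the integrin chains Itga4 was closest to Itgal with a gap of 0.633 (rank 528 of 22179), Itgb2 had 0.686 (rank 1928) and Itgam had 0.962 (rank 20394).

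The other genes of the integrin system were taken from lists of 16 further measured subunits, 15 ligands, 29 genes of integrin activation and linkage to actin, and 14 other homing and adhesion receptors. At 4 h 0 of these 74 genes passed with limma (1 had an unadjusted p under 0.05), and at 10 h 1 did (17 had an unadjusted p under 0.05). Over all 22180 genes an unadjusted p under 0.05 was found for 934 at 4 h and 3122 at 10 h, and 0.00451% and 0.667% passed. That gene was Parvb, a parvin that joins integrin-linked kinase to actin. Its 10 h levels were 6.68, 6.62, 5.98 and 5.75 in GSI cells, against 7.77, 7.45, 7.12 and 6.02 in DMSO cells, and the ranges overlap.

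Parvb fell by 0.83 ± 0.14 at 10 h (SE, limma adjusted p = 0.0190), in 4 of 4 pairs. Without pair 1 the adjusted p was 0.0872, with each time fitted on its own arrays it was 0.392, and within the runs it was 0.813 and 0.567. At 4 h its pair differences lay between -0.21 and 0.51. The OP9 stromal marker mean was lower in 3 of 4 pairs at 10 h and its part in the Parvb fall was not tested.

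The listed genes with the smallest p that did not pass at 10 h were the subunits Itga9 (-0.37) and Itgb3 (0.43), the ligands Madcam1 (0.47), which binds Itga4 with Itgb7, and F11r (0.35), which binds LFA-1, and the receptors Cd34 (0.46) and Cxcr4 (0.41). Their limma adjusted p ran between 0.0715 for Cd34 and 0.267 for Itgb3. At 4 h the corresponding genes were Itga11 (-0.25), Itgad (-0.14), Tnc (0.30), Vtn (-0.22), Rasgrp2 (-0.16), Cytip (-0.27), Cdh2 (0.24) and Cd47 (0.08), all with a limma adjusted p of 0.999.

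The DMSO arrays at 4 h show how the chains varied among themselves without inhibitor. Itgal was 6.39 to 6.92 in the 4 pairs of run 3, against 7.38 to 8.30 in the 3 pairs of runs 1 and 2. Itga5 was 9.54 to 10.4 in run 3, against 9.09 to 9.37 in the other runs. Itgb1 was 10.7 to 11.1 in run 3, against 10.1 to 10.5. So Itgal was low in the arrays where Itga5 and Itgb1 were high. The mean of 7 endothelial markers was 9.69 to 10.7 in run 3, against 7.91 to 9.24.

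Pair 6 was the extreme of this pattern. Itga4 was 6.42 in GSI and 6.50 in DMSO, while the other 4 h arrays had 8.76 to 9.46 in GSI and 8.78 to 9.68 in DMSO. Itgam was 4.52 in GSI and 4.99 in DMSO. Itga5, Itga6 and Itgb1 had their highest 4 h levels in pair 6. Leaving it out, the 4 h Itgal difference was -0.42. The endothelial mean differed by -0.06 between the GSI and the DMSO array of pair 6, and Itgal by -0.65. Over pairs 1 to 7 at 4 h the endothelial mean differed by 0.22, 0.37, -0.17, -0.11, -0.04, -0.06 and -0.11. At 10 h it differed by 0.31, -0.43, -0.34 and -0.05 in pairs 1 to 4. The part of other cells in the levels and in the GSI differences was not tested.

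**Figure D3:**
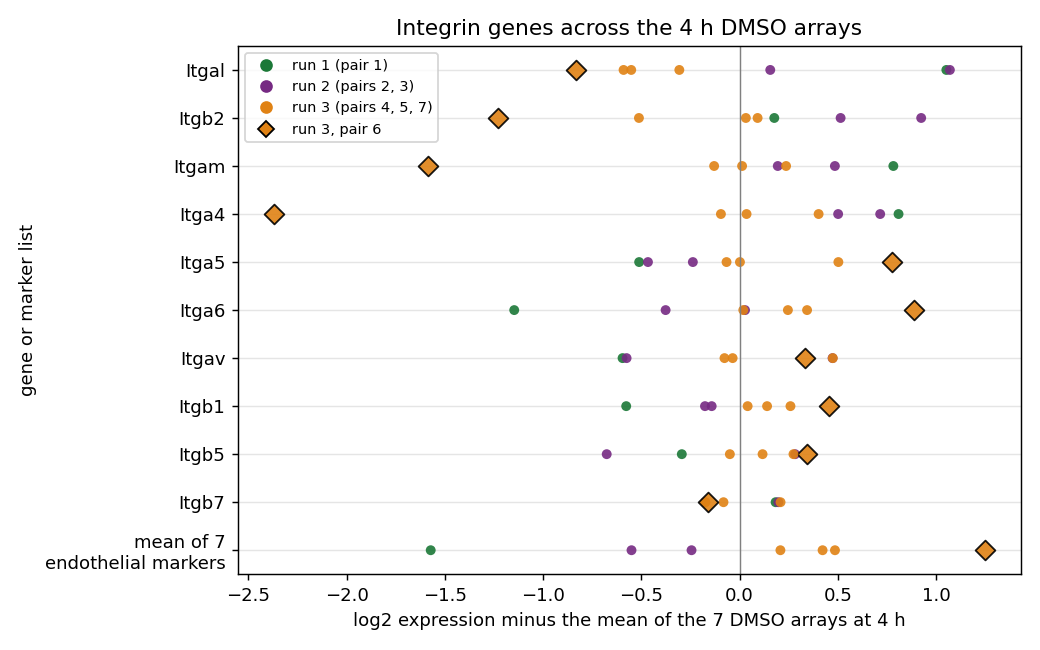
Log2 expression of each integrin gene in the 7 DMSO arrays at 4 h, minus that gene's mean, coloured by run, with pair 6 as a diamond. The bottom row is the mean of 7 endothelial markers. Pair 6 is lowest for Itgal, Itgb2, Itgam and Itga4 and highest for Itga5, Itga6, Itgb1 and the endothelial mean.

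Levels at 10 h and 4 h were compared after quantile normalization over all arrays, which left the median change of all genes at 0.04 in DMSO and 0.03 in GSI. As deposited, the median was -0.41 and -0.42. Every run belongs to a single time, and effects of time and of run therefore cannot be told apart. Of the 9 chains besides Itgal, 5 were lower at 10 h in DMSO and 5 in GSI, and 0 were higher: Itga5, Itgav, Itgb1, Itgb5 and Itgb7 in both. Of all genes 33.9% passed in DMSO (15.2% lower, 18.7% higher) and 36.1% in GSI (17% lower, 19.1% higher). As deposited, 3.48% of the calls were higher in DMSO and 3.16% in GSI, against 55.2% and 52.8% after quantile normalization.

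Itgb5 had the largest falls among the 9. Its levels in DMSO were 4.58, 5.01, 4.58 and 4.42 at 10 h, against 5.67, 6.52 and 6.81 at 4 h (lowest, median and highest of 7). No 10 h array reached the lowest 4 h array. The share of all genes without overlap between the times was not counted. As deposited, the 10 h levels of Itgb5 lay under the median gene of their group. The change was -1.74 ± 0.21 in DMSO (SE, limma adjusted p = 0.00017), or 3.34-fold, and -2.16 ± 0.17 in GSI (SE, limma adjusted p = 9.3e-06), or 4.47-fold.

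Itga5, the alpha chain of the fibronectin receptor, had levels in DMSO of 7.61, 8.40, 7.80 and 7.52 at 10 h, against 8.94, 9.40 and 10.2 at 4 h. The groups did not overlap. It fell in both, with -1.64 ± 0.25 in DMSO (SE, limma adjusted p = 0.00067) and -1.83 ± 0.19 in GSI (SE, limma adjusted p = 6.8e-05).

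Itgav, the partner of Itgb5, had levels in DMSO of 7.03, 7.45, 7.07 and 6.44 at 10 h, against 7.54, 8.16 and 8.68 at 4 h. Its groups did not overlap either. It fell in both, with -1.16 ± 0.26 in DMSO (SE, limma adjusted p = 0.0052) and -1.30 ± 0.14 in GSI (SE, limma adjusted p = 8.3e-05). Both chains of this receptor were thus lower at 10 h.

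Itgb1, the shared beta chain, had levels in DMSO of 9.86, 10.1, 9.55 and 9.64 at 10 h, against 9.93, 10.6 and 11.03 at 4 h. It fell in both, with -0.76 ± 0.18 in DMSO (SE, limma adjusted p = 0.0069) and -0.93 ± 0.15 in GSI (SE, limma adjusted p = 0.00067). Itgb7 fell too, with -0.39 ± 0.12 in DMSO (SE, limma adjusted p = 0.0233) and -0.36 ± 0.10 in GSI (SE, limma adjusted p = 0.0138). In DMSO this call was lost without 10 h pair 1 (adjusted p = 0.0595) or pair 4 (adjusted p = 0.0664). As deposited, the highest 10 h level of Itgb7 was 4.66 in GSI and 4.75 in DMSO. Both lay under the median gene of their group, 4.74 and 4.76.

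Itgb2, Itgam, Itga4 and Itga6, the other 4 of the 9, did not pass in either treatment. Itgb2 differed by 0.12 ± 0.32 in DMSO and -0.05 ± 0.27 in GSI (SE). Itgam differed by 0.71 ± 0.34 in DMSO and 0.84 ± 0.45 in GSI (SE, limma adjusted p of 0.125 and 0.163). Itga4 differed by 0.67 in DMSO and 0.52 in GSI, and by 0.28 and 0.13 without 4 h pair 6. Itga6 differed by -0.73 in DMSO and -0.72 in GSI (limma adjusted p of 0.0765 and 0.0542), and passed in both without 4 h pair 1 (-0.93 and -0.90, adjusted p of 0.0066 and 0.0051).

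Itgal, on the same scale, averaged 6.54 ± 0.86 in GSI at 4 h, 6.97 ± 0.26 in GSI at 10 h, 7.03 ± 0.80 in DMSO at 4 h and 8.02 ± 0.24 in DMSO at 10 h (SD). The ranges of neighbours in this order overlapped at each step. The difference of 10 h and 4 h was 1.00 ± 0.36 in DMSO and 0.43 ± 0.39 in GSI (SE), as a description. As deposited, it was 0.43 in DMSO and -0.15 in GSI.

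**Figure D4:**
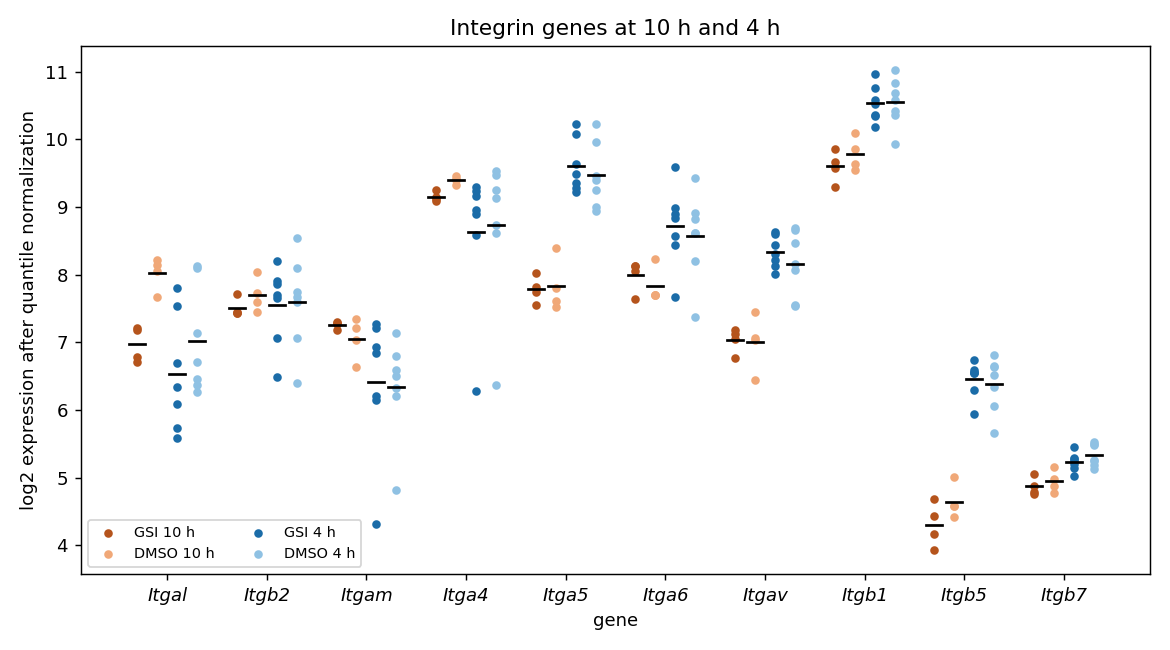
Quantile-normalized log2 expression of the 10 integrin genes in GSI and DMSO arrays at 10 h and 4 h, with black bars for group means. Levels are to be compared within a gene only. Itga5, Itgav, Itgb1 and Itgb5 are lower at 10 h, and Itgal is highest in DMSO at 10 h.

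Other cell markers moved between the times as well, beside 15.2% of all genes called lower in DMSO and 17% in GSI. The mean of 7 endothelial markers had a median of 7.40 in GSI and 7.50 in DMSO at 10 h, against 9.48 in GSI and 9.58 in DMSO at 4 h, on the quantile-normalized scale. Of these markers 7 of 7 fell in GSI and 6 of 7 in DMSO. The mean of 16 OP9 markers had a median of 5.51 in GSI and 5.93 in DMSO at 10 h, against 6.88 and 6.56 at 4 h, and 12 of 16 fell in GSI and 3 of 16 in DMSO. The mean of 6 measured hepatocyte markers had a median of 5.41 in GSI and 6.02 in DMSO at 10 h, against 7.38 in GSI and 7.61 in DMSO at 4 h, and 2 of 6 fell in GSI and 4 of 6 in DMSO. That of 10 macrophage markers, cells that also carry Itgal, Itgam and Itgb2, had a median of 5.80 in GSI and 5.84 in DMSO at 10 h, against 6.65 in GSI and 6.63 in DMSO at 4 h, and 5 of 10 fell in GSI and 3 of 10 in DMSO. Of 8 lymphoid and NK markers 4 rose and 2 fell in each treatment, and of 11 neutrophil and monocyte markers 0 passed with limma in either (1 in GSI and 2 in DMSO had an unadjusted p under 0.05). Itga5, Itgav, Itgb1 and Itgb5 are also chains of endothelial and stromal cells. The part of all these cells in the differences between times was not tested.

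Promoters of 7 of the 10 genes were found in the RefSeq table for GRCm38.p6, from 250 bases before to 50 after the gene's start. They were those of Itgam, Itga4, Itga5, Itgav, Itgb1, Itgb5 and Itgb7, and those of Itgal, Itgb2 and Itga6 were not used here. Itga5 (chr15:103366742-103367041, minus strand) and Itgb5 (chr16:33829415-33829714, plus strand) are shown as the chains with the largest falls between times, and Itgam (chr7:128062390-128062689, plus strand) as the partner of Itgb2 among the 7. Capitals mark GAGGAA, the core that the myeloid factor PU.1 binds, and GGGCGG, the core that Sp1 binds, in either orientation.
Itga5 promoter: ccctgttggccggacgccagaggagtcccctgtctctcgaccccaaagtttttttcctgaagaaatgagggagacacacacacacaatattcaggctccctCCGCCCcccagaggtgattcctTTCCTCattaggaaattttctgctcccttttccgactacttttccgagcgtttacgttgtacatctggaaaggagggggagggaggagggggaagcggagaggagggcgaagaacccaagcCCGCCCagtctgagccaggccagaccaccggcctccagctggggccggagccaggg
Itgb5 promoter: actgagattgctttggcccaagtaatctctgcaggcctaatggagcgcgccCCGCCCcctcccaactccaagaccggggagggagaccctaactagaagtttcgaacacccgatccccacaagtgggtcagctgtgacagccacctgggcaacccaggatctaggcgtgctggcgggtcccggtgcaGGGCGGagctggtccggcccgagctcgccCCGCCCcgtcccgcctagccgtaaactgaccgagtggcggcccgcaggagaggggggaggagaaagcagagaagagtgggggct
Itgam promoter: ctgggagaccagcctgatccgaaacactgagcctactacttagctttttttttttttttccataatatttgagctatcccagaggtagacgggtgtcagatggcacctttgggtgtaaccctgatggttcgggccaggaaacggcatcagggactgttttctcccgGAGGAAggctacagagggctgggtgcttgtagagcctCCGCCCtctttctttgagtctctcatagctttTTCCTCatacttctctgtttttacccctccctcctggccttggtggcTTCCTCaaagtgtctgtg
GAGGAA on either strand occurred 3 times in the Itgam window, 2 times in that of Itgav and 1 time each in those of Itga5, Itgb1 and Itgb7, and 28.3% of 32851 mouse promoters of this length held it. GGGCGG occurred 3 times in the Itgb5 window, 2 times in that of Itga5, 1 time each in those of Itgam, Itga4, Itgav and Itgb1 and not in that of Itgb7, and 35.7% of promoters held it. TGGGAA, the core bound by the Notch partner RBPJ, had no match in the 7 windows, and 25.6% of promoters held it. CCGGAA (ETS factors) occurred in Itgb1, TGANTCA (AP-1) in none, and TGNGGT (Runx) in Itga4, Itgb1, Itgb7 and Itga5, against 14.9%, 7.81% and 45.8% of promoters in that order. A match is a description of letters and not a site.

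The wider integrin system was also read between the times. The background for each list below is the share of all genes that passed. It was 33.9% in DMSO (15.2% lower, 18.7% higher) and 36.1% in GSI (17% lower, 19.1% higher). Of 16 further subunits 6 fell and 1 rose in each treatment. Those that fell were Itga1 (-2.18 in DMSO), Itga2 (-1.47), Itga3 (-1.14), Itga8 (-1.84), Itga9 (-1.50) and Itgax (-0.44), and Itga7 rose (0.54). Itga1 and Itga2 are collagen receptors and Itgax is a further partner of Itgb2.

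Of 15 ligands 7 fell and 2 rose in DMSO, and 9 fell and 1 rose in GSI. Icam1, the best known ligand of LFA-1, fell (-2.52 in DMSO and -2.45 in GSI). Vcam1, the ligand of Itga4 with Itgb1, fell (-1.72 in DMSO and -2.07 in GSI). Fibronectin, Fn1, fell (-1.28 in DMSO and -1.72 in GSI). F11r, Vtn, Lama4 and Lama5 fell in both treatments, Tnc and Lamc1 passed in GSI, Lama1 rose in both and Icam4 passed in DMSO (0.92).

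Of 29 activation and linkage genes 10 fell and 3 rose in DMSO, and 12 fell and 3 rose in GSI, where 33.9% and 36.1% of all genes passed. Zyx, a focal adhesion protein, fell (-1.20 in DMSO and -1.32 in GSI), and Vcl, which joins talin to actin, fell (-1.21 in DMSO and -1.31 in GSI). Fermt2, a kindlin that activates integrins outside blood cells, fell (-1.77 in DMSO and -2.14 in GSI). Fermt3, the kindlin of blood cells, rose in DMSO (0.61 ± 0.19 SE, limma adjusted p = 0.0277). The others that passed in DMSO were Tln2, Lims1, Parvb, Pxn, Rap1b, Rasgrp2 and Sharpin, which fell, and Dok1 and Stk4, which rose. In GSI, Fermt1, Parva and Rapgef1 also passed.

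Of 14 homing and adhesion receptors 7 fell in DMSO and 8 in GSI, and 0 rose. They were S1pr1 (-2.16 in DMSO), Esam (-2.06), Alcam (-0.49), Cdh2 (-0.71), Cdh5 (-2.30), Robo4 (-2.14) and Emcn (-1.20), with Pecam1 (-0.92) added in GSI. Cdh5, Pecam1 and Emcn are also in the endothelial marker list. Leaving out 1 array ended the time call of 12 of these listed genes in DMSO, with adjusted p up to 0.166: Itga2, Itgax, Icam4, Fn1, Lama1, Tln2, Fermt2, Fermt3, Parvb, Stk4, Cdh2 and Cdh5. In GSI it ended 10, with adjusted p up to 0.155: Itga2, Lama1, Lamc1, Tln2, Fermt1, Pxn, Rapgef1, Dok1, Sharpin and Pecam1.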

How the data were processed

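RNA of the sorted cells was hybridised to 1-colour arrays. The deposited table holds log2 values, made by the authors with RMA in Partek 6.6, per the submitters' processing notes. No source used here says if the 4 h and 10 h arrays were normalized as 1 set. Of 41345 probes, 23521 had 1 gene symbol, 1814 several and 16010 none listed. The probe with the highest mean was kept per gene (22180 genes), with no filter on low signal and no detection calls, and the precision is set by how many arrays there were.

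The test was limma 3.58.1, run in R 4.3.3 (eBayes with trend, 2-sided, Benjamini-Hochberg adjustment over all genes, threshold 0.05). GSI was compared with DMSO in 1 fit to 22 arrays with the pair as a block. Pairing comes from the series' design text. Deviations of GSI and DMSO partners from their group means correlated at 0.223 to 0.872 at 4 h and 0.213 to 0.449 at 10 h. Times were compared within each treatment on quantile-normalized values, in 11 arrays each. Each SE given for a change is the one from its limma fit. The fits were tested on simulated data.

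Members and lists were chosen with earlier results of these data known. Named genes were the 10 members, the listed genes that passed in a comparison (or the 2 with the smallest p where none did), and the 5 genes closest to Itgal. Alternatives were no pair block, each time on its own arrays, other normalizations, other variance settings, bright genes only, single runs and left-out pairs. A further one took the mean of all probes of a gene.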

Additional observations from a re-analysis of the deposited data

Results flagged for a closer look

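Among 60 sets of values (levels by group, and pair differences by time, of the 10 genes), 8 had 1 sample far from the rest of its group, and chance alone flags about 1 in 20 such sets. Of these, 4 were in pair 6 at 4 h: Itgam at 4.52 in GSI and 4.99 in DMSO, and Itga4 at 6.42 in GSI and 6.50 in DMSO, each the lowest of 7. The Itgal difference of pair 2 at 10 h, -1.55, lay below the other 3 pairs. Itgb1 had its highest pair difference at 4 h in pair 1, 0.26. The lowest Itga6 level in GSI at 10 h was 7.32 in pair 4, and the highest Itgb5 level in DMSO at 10 h was 4.60 in pair 2.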

How the results depend on the processing

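Itgal stayed lower in GSI under each alternative run: between -0.49 and -0.41 at 4 h and between -1.22 and -0.85 at 10 h. Of the other 9 chains 0 passed with GSI under any alternative run. Without the pair as a replicate block the Itgal change was -1.04 at 10 h and -0.46 at 4 h, and 0 of 22180 genes passed at either time (1363 at 10 h and 360 at 4 h had an unadjusted p under 0.05). Parvb had an adjusted p of 0.827 without the block. Leaving out 1 pair gave 27 to 228 genes at 10 h, against 148. The 10 h count was 2 with each time on its own arrays, 37 after quantile normalization (73% higher, against 83.1%), 63 after cyclic loess (63.5% higher), 91 without the trend, 25 with array weights, 285 among brighter genes, and 15 within run 2 and 0 within run 1, where 1217 had an unadjusted p under 0.05. At 4 h it was 148 within run 2, 3 with array weights, 2 on its own arrays and 0 without the block, against 1, and 3 without pair 6.

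Small changes of genes that did not pass switched sign. At 4 h, leaving out 1 pair, Itgb2 ran between -0.13 and 0.077 and Itgam between -0.030 and 0.18. Within run 3 Itgb2 was 0.046, Itgam -0.098, Itgb5 -0.083 and Cytip 0.067, and within run 2 Vtn was 0.051. At 10 h, leaving out 1 pair, Itgb2 ran between -0.23 and 0.021, Itga5 between -0.040 and 0.15 and Itgav between -0.027 and 0.26. Itgb2 was 0.020 within run 2. Itga5 was -0.045 with quantile values, -0.065 with loess, -0.010 with array weights and -0.087 within run 1, where Itgav was -0.097. With the mean of all its probes the 4 h Itgav change was 0.056, against 0.17.

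Between times, 4 to 6 of the 9 chains passed in DMSO and in GSI. As deposited, 13348 genes passed in DMSO and 14895 in GSI, and signs turned for Itgb2 (-0.44), Itga7 (-0.11), Lama1 (-0.18) and Dok1 (-0.0015) in DMSO, and for Itgal (-0.15), Itga7 (-0.12), Lama1 (-0.23), Fermt1 (-0.050) and Dok1 (-0.090) in GSI. Leaving out 1 array, Itgb2 ran between -0.082 and 0.28 in DMSO and between -0.22 and 0.063 in GSI. The cause of these shifts was not tested. Pair 2 at 10 h was left out of the search for genes close to Itgal after seeing the data, as were pair 6 at 4 h and quantile values, and 1, 4 and 4 of the 5 genes stayed.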
